A study of Mus musculus with 6 samples.

Results

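The genes of melanin synthesis and of the melanosome were followed in mouse melanoma cells of the line B16F10 grown in 2 culture media. The group holds 10 genes, found by their symbols in a deposited table of 21878 genes, and all 10 were present and tested. They are the enzymes Tyr, Tyrp1 and Dct, the structural and cargo proteins Pmel and Mlana, the melanosomal transporters Oca2, Slc45a2 and Slc24a5, the melanosomal receptor Gpr143 and the ion channel gene Trpm1. There were 3 libraries from cells in RPMI-1640 and 3 from cells labelled DMEM, whose titles have the unexplained code HG added. All cells are labelled as wild type, at time 0, and both media held 10% fetal bovine serum with antibiotics. The labels also carry a protocol of adipogenic differentiation with dexamethasone, isobutylmethylxanthine and insulin, and do not say whether these cells received it. Whether the 3 libraries of each medium are separate cultures is not stated, so a p-value here speaks only of how much these libraries vary, and that variation may be technical.

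Melanocytes and many melanomas make melanin in melanosomes, organelles related to lysosomes. Tyrosinase starts the pathway by oxidising tyrosine, dopachrome tautomerase and tyrosinase-related protein 1 act on later intermediates, and the pigment is laid down on fibrils of PMEL inside the organelle. Transporters in its membrane set the ions and the pH in which tyrosinase works, and the transcription factor MITF, acting with SOX10 and PAX3, is known to drive most of these genes.

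Values are FPKM, fragments counted per gene, scaled by gene length and library size, as the authors deposited them. Log2 fold changes give RPMI-1640 relative to DMEM, as differences of log2(FPKM + 1) that are too small for genes of low level, and were fitted with limma over the 10624 genes that averaged 1 FPKM or more. Adjusted p-values are Benjamini-Hochberg values over all of these genes, and a value under 0.05 was called. Of all genes tested 76.0% were called, 35.4% as lower and 40.6% as higher in RPMI-1640, so a call by itself is common here. With every library scaled to the same FPKM sum, called a common total here, the median log2 fold change of all genes rose by 0.15, and of all genes 76.5% were called, 51.5% as higher and 25.0% as lower. The recovered read totals per library ran from 37828000 to 45361000 reads in RPMI-1640 and from 36960000 to 46404000 in DMEM. Their ratios came from the spacing of low values. The absolute scale came from 283 genes with a single transcript, of which 38 shared the factor used, so it is uncertain. Across 10324 genes the log2 fold change also followed gene length (Spearman's rho 0.467) and GC content (-0.469), a description with no p since genes are not replicates. Values with that trend removed from each library are therefore given for every pigment gene and list, and for other named genes where the call or the direction changed. DMEM replicate 3 is titled with L3 and the other libraries with L2, and it differed most from the other libraries of its medium (chi-square per degree of freedom 24.4 and 29.3 against them, and 4.72 to 9.23 in the other pairs within a medium).

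The marker genes matched the label of a melanoma line. Summed over 10 melanocyte lineage markers, which include Dct and others of the pigment genes, the libraries held 10758 to 10913 FPKM in RPMI-1640 and 13075 to 13308 FPKM in DMEM, and every marker averaged over 1 FPKM. All 8 keratinocyte markers were listed at 0 in every library, as were the leukocyte markers Ptprc, Cd3e, Adgre1, Itgam and Ly6g. Of 10 adipocyte markers, 6 were listed at 0 throughout, among them Fabp4, Cfd and Cebpa, and the 10 together summed to 1.29 to 1.53 FPKM in RPMI-1640 and 2.88 to 3.61 FPKM in DMEM. The 8 fibroblast markers summed to 5.10 to 5.97 FPKM in RPMI-1640 and 4.26 to 4.57 FPKM in DMEM. The 6 endothelial markers stayed under 1 FPKM in sum in every library, and the leukocyte sum rested on Cd68, at 1.74 FPKM in RPMI-1640 and 2.61 FPKM in DMEM.

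Most of the pigment genes were lower in RPMI-1640, and by very different amounts. By limma 7 of the 10 were called lower (35.4% of all genes tested were), 1 was called higher and 2 did not pass. Trpm1 fell to 25.6% of its DMEM level, Oca2 to 47.2%, Gpr143 to 50.3%, Slc45a2 to 57.3%, Pmel to 62.9%, Dct to 77.8% and Slc24a5 to 80.4%. Tyr was the gene called higher, at 113% of its DMEM level, but it turned to lower with the length and GC trend removed. Tyrp1 and Mlana stood at 98.1% and 92.8% and did not pass on the deposited values. The median log2 fold change of the 10 was -0.51, against 0.033 for all genes tested, and with the trend removed it was -0.47 against -0.00062. In RNA from whole cultures, fewer pigmented cells and less of a transcript per cell cannot be told apart.

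**Figure D1:**
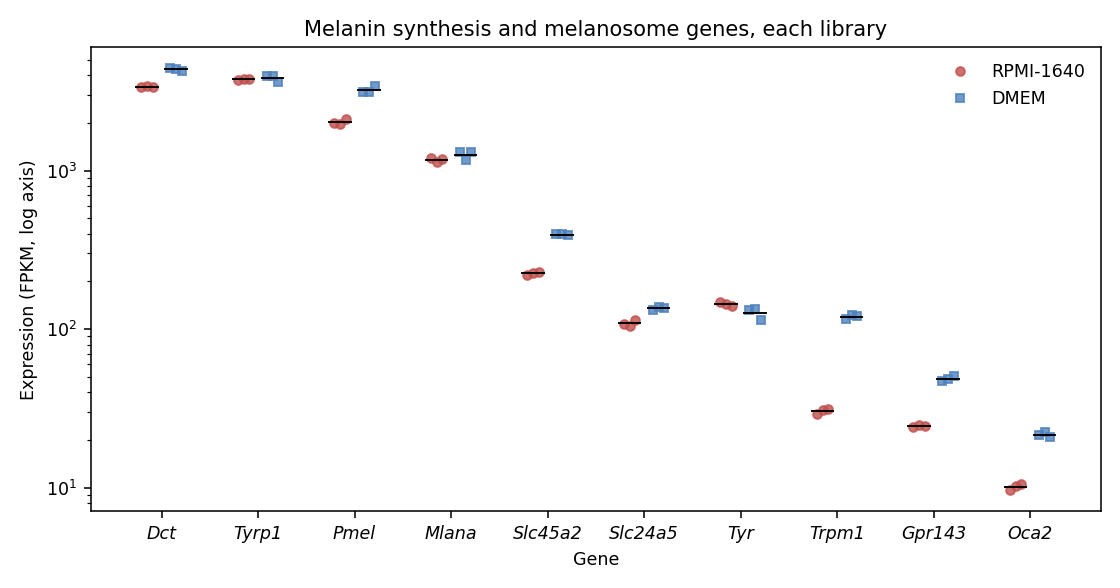
FPKM of the 10 genes on a log axis, with 3 points for each medium (RPMI-1640 left, DMEM right) and a black line at each mean; genes run from the highest to the lowest DMEM mean. The media are apart for every gene except Tyrp1 and Mlana, and the widest gap is that of Trpm1, at 30.5 FPKM in RPMI-1640 and 119 FPKM in DMEM.

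The 3 enzymes of the pathway are related proteins, of which on the deposited values Tyr was higher, Dct was lower and Tyrp1 did not pass. Tyr, the rate-limiting tyrosinase (chr7:87424771-87493512, minus strand), stood at 148, 145 and 139 FPKM in RPMI-1640 and at 133, 134 and 115 FPKM in DMEM. The media did not overlap, although the closest libraries were only a few FPKM apart and the lowest of all was DMEM replicate 3. This came to a log2 fold change of 0.18 (SE 0.060, limma adjusted p = 0.0173). Without DMEM replicate 3 it was 0.11 (limma adjusted p = 0.0307), and without RPMI-1640 replicate 1 or 2 it no longer passed (0.16 and 0.18, limma adjusted p = 0.0621 and 0.0522). With the length and GC trend removed it was -0.43 (SE 0.031, limma adjusted p = 6.17e-07). Among the 10 genes Tyr had the longest implied gene length, 4759 bases, and the lowest GC content, 35.2%. The length is the one implied by the deposited values, whereas the GC content is that of its longest annotated transcript, 6042 bases. The direction of Tyr therefore depended on this correction, and the part of length and GC content in its value was not tested further.

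Tyrp1, which in the mouse oxidises a late indole intermediate and stabilises tyrosinase (chr4:80834123-80851719, plus strand), was at 3714, 3793 and 3785 FPKM in RPMI-1640 and at 3946, 3955 and 3611 FPKM in DMEM. The media overlapped, again through DMEM replicate 3, and the log2 fold change was -0.027 (95% interval -0.17 to 0.12, limma adjusted p = 0.718). With a common total it was 0.14 and passed (limma adjusted p = 0.0382), and -0.17 and passed with the trend removed (limma adjusted p = 0.000985), so no direction held for this gene. Dct, dopachrome tautomerase (chr14:118012790-118052244, minus strand), was at 3367, 3397 and 3365 FPKM in RPMI-1640 and at 4397, 4370 and 4249 FPKM in DMEM. Every RPMI-1640 library was below every DMEM library, with a log2 fold change of -0.36 (SE 0.060, limma adjusted p = 0.000184), or -0.51 with the trend removed. Of these 3 enzymes, Dct alone kept its direction and its call under each of the 16 alternative settings tried.

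On the deposited values the balance between the enzymes differed between the media. Per unit of Tyr, the level of Dct was 22.8, 23.5 and 24.2 in RPMI-1640 and 33.2, 32.7 and 37.0 in DMEM. The ratio of Tyrp1 to Dct was 1.10, 1.12 and 1.12 in RPMI-1640 and 0.897, 0.905 and 0.850 in DMEM, so the order of these 2 genes was opposite in the media. Ratios within a library do not depend on its scaling, but they do not say which of the genes changed, and the length and GC trend was not removed from them.

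The promoters of these enzymes are known for the M-box, an E-box with a flanking T that MITF binds, and they are shown here because MITF itself differed between the media. The 250 bases before the RefSeq start in GRCm38.p6 are given 5′ to 3′ on the strand of the gene, with the M-box core TCATGTG in capitals. Where the core lies on the other strand the capitals read CACATGA. The stretches are chr7:87493513-87493762 (minus strand) for Tyr, chr4:80833963-80834212 for Tyrp1, chr14:118052247-118052496 (minus strand) for Dct, chr7:64153585-64153834 for the first start of Trpm1 and chr2:125067877-125068126 for Slc24a5.
Tyr: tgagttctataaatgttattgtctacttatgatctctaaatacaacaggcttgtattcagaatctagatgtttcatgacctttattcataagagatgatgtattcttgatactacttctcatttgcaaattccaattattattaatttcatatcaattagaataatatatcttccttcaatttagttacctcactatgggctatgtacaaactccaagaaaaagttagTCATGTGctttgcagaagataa
Tyrp1: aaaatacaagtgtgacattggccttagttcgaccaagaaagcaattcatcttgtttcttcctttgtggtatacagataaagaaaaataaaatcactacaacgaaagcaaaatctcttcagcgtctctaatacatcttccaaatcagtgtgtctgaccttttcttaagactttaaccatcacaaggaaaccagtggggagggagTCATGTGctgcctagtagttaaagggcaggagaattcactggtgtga
Dct: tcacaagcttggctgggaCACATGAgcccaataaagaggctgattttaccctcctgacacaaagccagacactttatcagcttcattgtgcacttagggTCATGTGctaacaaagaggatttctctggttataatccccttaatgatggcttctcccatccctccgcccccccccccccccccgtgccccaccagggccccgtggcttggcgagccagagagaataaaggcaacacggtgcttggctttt
Trpm1: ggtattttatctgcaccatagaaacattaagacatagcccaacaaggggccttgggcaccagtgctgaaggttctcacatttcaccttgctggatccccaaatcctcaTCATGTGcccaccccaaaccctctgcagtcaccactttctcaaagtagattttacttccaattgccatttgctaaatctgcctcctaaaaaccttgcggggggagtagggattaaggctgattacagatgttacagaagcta
Slc24a5: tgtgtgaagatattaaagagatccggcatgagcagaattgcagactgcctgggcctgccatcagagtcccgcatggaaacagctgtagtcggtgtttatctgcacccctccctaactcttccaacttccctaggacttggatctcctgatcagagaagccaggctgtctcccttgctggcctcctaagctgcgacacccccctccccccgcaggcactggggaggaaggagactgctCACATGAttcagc

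The RefSeq table held promoter windows of 300 bases, 250 before to 50 after the start, for 6 of the 10 genes: Tyr, Tyrp1, Dct, Oca2, Slc24a5 and Trpm1, the last with 2 starts. Searched on both strands, TCATGTG was present in 5 of the 6, against 4.31% of the 27025 genes with a window. It lay at bases -22 to -16 in Tyr, -47 to -41 in Tyrp1, -151 to -145 and -232 to -226 in Dct, -142 to -136 at the first start of Trpm1 and -13 to -7 in Slc24a5. The shorter CATGTG, which is contained in TCATGTG, was in all 6 and in 15.9% of all genes, and in Oca2 it was found outside TCATGTG at -186 to -181. The palindromic CACGTG was in 1 of the 6, at the second start of Trpm1, and in 8.09% of all genes. The 5 genes with TCATGTG had log2 fold changes from -1.93 to 0.18, which is as wide as the range of the 10 genes. A match describes the letters in this window and does not show binding. Tyr, Tyrp1 and Dct were already known for the M-box, so the share beside that of all genes is no test of enrichment.

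**Figure D2:**
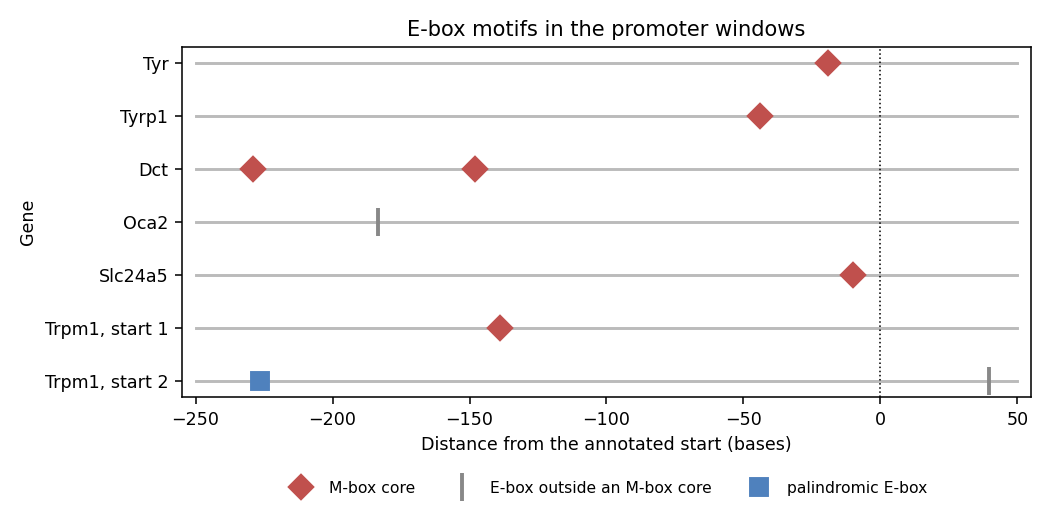
E-box motifs in the promoter windows of the 6 genes that have one, against the distance from the annotated start in bases; grey lines are the windows, from 250 bases before to 50 after the start. The M-box core is present in Tyr, Tyrp1, Dct, Slc24a5 and at the first start of Trpm1, and lies nearest to the start in Slc24a5 and Tyr.

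Of the 2 genes for structural and cargo proteins, Pmel was lower in RPMI-1640 and Mlana did not pass. Pmel, which forms the fibrils of the melanosome (chr10:128704195-128720238, plus strand) was at 1991, 1967 and 2101 FPKM in RPMI-1640 and at 3127, 3110 and 3398 FPKM in DMEM. The groups were far apart, with the highest library of each medium being replicate 3, for a log2 fold change of -0.67 (SE 0.063, limma adjusted p = 2.13e-06) or -0.44 with the trend removed. The gene overlaps Cdk2 and Dgka on the other strand, and whether counting used strand is not given in the sources used here. Mlana, also known as MART-1, a melanosomal membrane protein that assists the maturation of PMEL (chr19:29697824-29708634, plus strand), was at 1196, 1131 and 1181 FPKM in RPMI-1640 and at 1312, 1170 and 1299 FPKM in DMEM. Its media overlapped through DMEM replicate 2, and the log2 fold change of -0.11 did not pass (95% interval -0.24 to 0.025, limma adjusted p = 0.126). It passed with the replicate number as a block (limma adjusted p = 0.0143) and without DMEM replicate 2 (-0.16, limma adjusted p = 0.0227), whereas with a common total it was 0.058, with the trend removed 0.046 and with quantile normalization 0.31. Per unit of Mlana, the level of Pmel was 1.66, 1.74 and 1.78 in RPMI-1640 and 2.38, 2.66 and 2.61 in DMEM.

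The transporters of the melanosomal membrane among the 10 genes were all lower in RPMI-1640. Oca2, a membrane protein needed for the chloride current and the pH of melanosomes (chr7:56239760-56536518, plus strand), had the lowest level of the 10, with 9.66, 10.3 and 10.6 FPKM in RPMI-1640 and 21.6, 22.4 and 20.9 FPKM in DMEM. Every RPMI-1640 library was far below every DMEM library, for a log2 fold change of -1.01 (SE 0.059, limma adjusted p = 6.86e-08). Slc45a2, a transporter that also bears on melanosomal pH and on tyrosinase activity (chr15:11000721-11029233, plus strand), was at 221, 227 and 230 FPKM in RPMI-1640 and at 395, 397 and 390 FPKM in DMEM. Replicates of this gene were nearly equal, with a log2 fold change of -0.80 (SE 0.043, limma adjusted p = 4.66e-08). Slc24a5, a potassium-dependent sodium and calcium exchanger of pigment cells (chr2:125068124-125088677, plus strand), was at 108, 105 and 114 FPKM in RPMI-1640 and at 132, 139 and 136 FPKM in DMEM. The media did not overlap, and the log2 fold change of -0.31 was the nearest to 0 of the genes called lower (SE 0.047, limma adjusted p = 9.01e-05), with a 95% interval that overlapped that of Dct. Its value is uncertain, since it overlaps Myef2 on the other strand and 48.5% of the 32-base words of its longest transcript occur in transcripts of other genes on either strand. With the trend removed the log2 fold changes were -1.12 for Oca2, -0.85 for Slc45a2 and -0.42 for Slc24a5.

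Gpr143 and Trpm1 showed some of the widest gaps. Gpr143, the receptor of ocular albinism, which sits in the melanosomal membrane and limits melanosome size (chrX:152781921-152808646, plus strand), was at 24.2, 24.7 and 24.4 FPKM in RPMI-1640 and at 46.8, 48.4 and 50.4 FPKM in DMEM. The RPMI-1640 libraries lay within 1 FPKM of each other, well below the DMEM libraries, with a log2 fold change of -0.96 (SE 0.048, limma adjusted p = 3.06e-08) or -0.75 with the trend removed. Trpm1, melastatin, a cation channel gene whose transcript also carries the microRNA gene Mir211 (chr7:64153835-64269775, plus strand), was at 29.3, 30.9 and 31.3 FPKM in RPMI-1640 and at 115, 122 and 120 FPKM in DMEM. That is 3.91-fold higher in DMEM, with a log2 fold change of -1.93 (SE 0.048, limma adjusted p = 2.35e-10), or -1.98 with the trend removed. Its 95% interval, -2.04 to -1.83, lay below the intervals of the other 9 genes, and among all 10624 genes only 14 had a lower log2 fold change. Of all genes tested 2.86% were called with a log2 fold change of -1 or lower; Trpm1 and Oca2 were the 2 of the 10 that were. Other genes within Trpm1 or overlapping it are Mir211, Mir6416, Gm44719 and Gm44722.

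**Figure D3:**
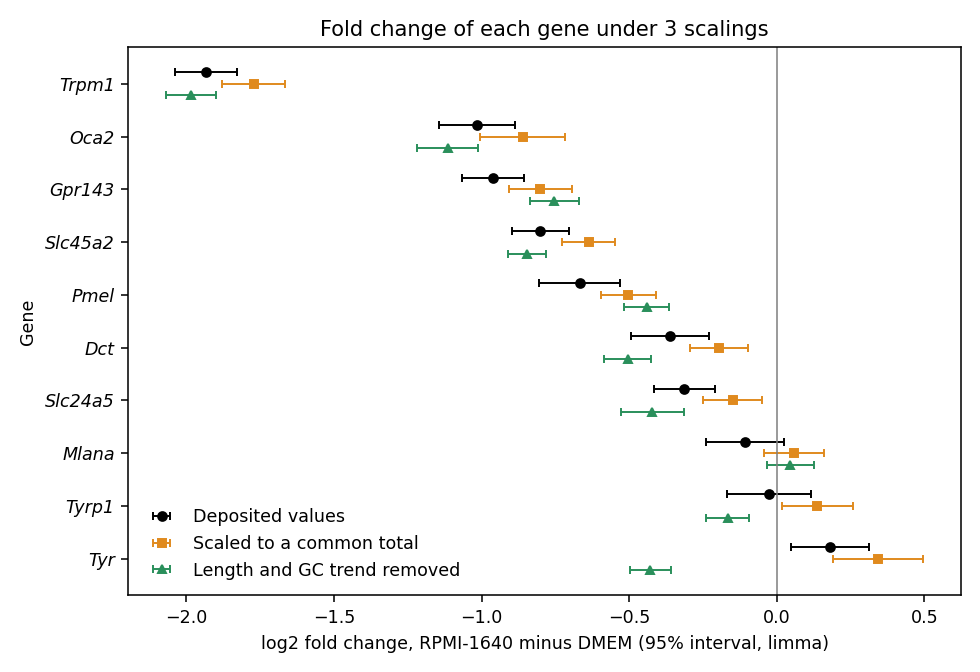
Log2 fold change of each of the 10 genes, RPMI-1640 minus DMEM, with limma's 95% interval, on the deposited values (circles), with values scaled to a common total (squares) and with the length and GC trend removed (triangles). Trpm1, Oca2, Gpr143, Slc45a2, Pmel, Dct and Slc24a5 lie below 0 in all 3, while Tyr (0.18, 0.34 and -0.43), Tyrp1 (-0.027, 0.14 and -0.17) and Mlana (-0.11, 0.058 and 0.046) change sign.

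For 8 of the 10 genes, 7 of them lower in RPMI-1640, the media did not overlap, as for 79.0% of all genes tested, with 36.7% of all genes apart and lower. A two-sided exact permutation test over the 6 libraries gave p = 0.1 for each of those 8, the smallest it can give, p = 0.6 for Tyrp1 and p = 0.3 for Mlana. The spread within a medium was small, with a coefficient of variation from 0.535% to 4.88% in RPMI-1640 and from 0.931% to 8.27% in DMEM. Each value rested on 1211 recovered reads or more in every library, and on up to 477205 recovered reads for Tyrp1. With the trend removed 9 of the 10 were called lower, including Tyr and Tyrp1, and none higher, where 74.0% of 10324 genes were called, 36.8% as lower and 37.2% as higher. With values scaled to a common total 7 were lower and 2 higher, Tyr and Tyrp1, where 25.0% of all genes were called lower and 51.5% higher.

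Tyrp1, Dct, Pmel and Mlana were among the most abundant transcripts of the cells. By mean FPKM, Tyrp1 ranked 3 in RPMI-1640 and 5 in DMEM among all 21878 genes, Dct ranked 4 in both media, Pmel 8 in both and Mlana 25 and 40. In RPMI-1640 the order was Tyrp1, Dct, Pmel, Mlana, Slc45a2, Tyr, Slc24a5, Trpm1, Gpr143 and Oca2, and no neighbours overlapped over the 3 libraries. In DMEM it was Dct, Tyrp1, Pmel, Mlana, Slc45a2, Slc24a5, Tyr, Trpm1, Gpr143 and Oca2. There Tyr overlapped both Slc24a5 and Trpm1, so these could not be ordered. Trpm1 ranked 2865 among all genes in RPMI-1640 and 656 in DMEM, Gpr143 3545 and 1826, and Oca2 6621 and 3893. Together the 10 genes made up 2.50%, 2.51% and 2.50% of the FPKM sum in RPMI-1640 and 2.81%, 2.83% and 2.68% in DMEM. The 3 enzymes took 1.68%, 1.70% and 1.66% of that sum in RPMI-1640 and 1.75%, 1.78% and 1.60% in DMEM, which overlap. The share of Pmel did not overlap (0.461%, 0.456% and 0.478% in RPMI-1640 against 0.645%, 0.653% and 0.680% in DMEM). Nor did that of the 5 membrane protein genes Oca2, Slc45a2, Slc24a5, Gpr143 and Trpm1, at 0.0908%, 0.0923% and 0.0933% in RPMI-1640 and 0.147%, 0.153% and 0.144% in DMEM. The FPKM sum itself was lower in RPMI-1640, at 431400 to 439693 against 475993 to 499334 in DMEM.

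**Figure D4:**
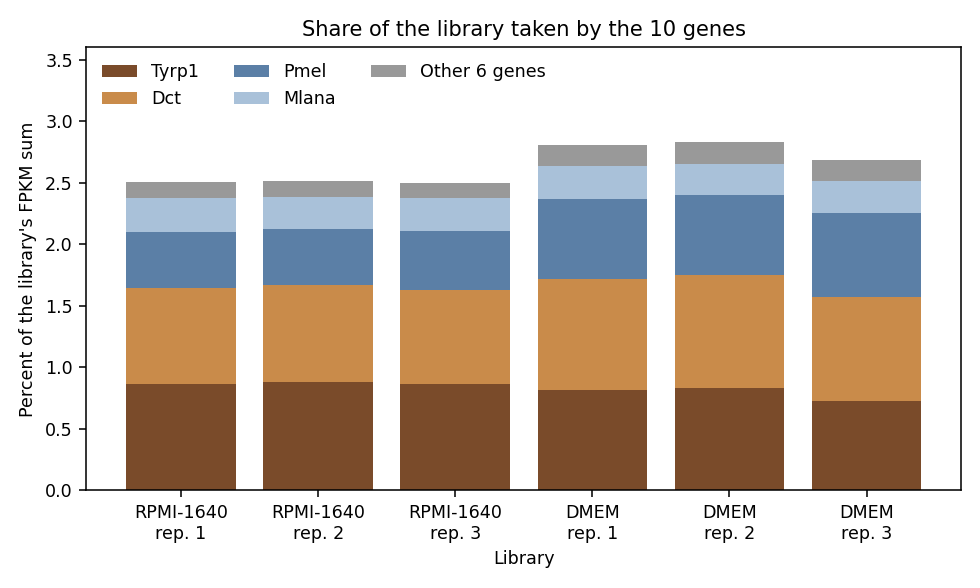
Percent of each library's FPKM sum taken by the 10 genes, as bars stacked by gene from 0, with RPMI-1640 libraries on the left and DMEM libraries on the right. The bars reach 2.50% to 2.51% in RPMI-1640 and 2.68% to 2.83% in DMEM, and the segment of Pmel differs most in height between the media.

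Of the 3 transcription factors known to drive these genes, Mitf and Pax3 were higher and Sox10 lower in RPMI-1640 on the deposited values. Mitf stood at 83.9, 83.8 and 76.7 FPKM in RPMI-1640 and at 58.9, 60.3 and 48.3 FPKM in DMEM, with a log2 fold change of 0.54 (SE 0.077, limma adjusted p = 5.45e-05), which shrank to 0.11 with the trend removed (limma adjusted p = 0.0302). Pax3 changed less (51.6 ± 1.24 FPKM in RPMI-1640 and 44.3 ± 1.28 in DMEM, SD, n = 3 each; 0.22, or 0.094 with the trend removed). Sox10 was lower, at 181 ± 3.73 FPKM in RPMI-1640 and 233 ± 9.43 in DMEM (-0.36), but did not pass with the trend removed (-0.011). Of 12 tested melanocyte factors 5 were called higher, 5 lower and 2 did not pass, with a median of 0.13. Without the trend 6 were higher and 4 lower (0.041). For this list and those below, the shares of all genes tested were 40.6% called higher and 35.4% lower. Without the trend these shares were 37.2% and 36.8%. Zeb2, a zinc finger factor of the melanocyte lineage, rose 3.68-fold to 53.5 FPKM in RPMI-1640, against 14.5 FPKM in DMEM (1.82 on the log2 scale and 1.13 without the trend). Tfap2a rose to 24.3 FPKM in RPMI-1640, against 14.9 FPKM in DMEM (0.67), while Tfeb, a relative of MITF that drives lysosome genes, fell to 43.8% of its DMEM level (-1.10, or -0.69 with the trend removed).

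Most genes of a list of other melanosome proteins were called lower. Of 14 tested, 11 were called lower (35.4% of all genes tested were), 1 higher and 2 did not pass. The median log2 fold change was -0.32, and without the length and GC trend 9 were lower and 3 higher (median -0.25). With a common total Mreg, Rab38 and Rab32 did not pass. Tpcn2 and Slc24a4 were then called higher (0.25 and 0.31), also with the trend removed (0.26 and 0.28). The list holds the tautomerase genes Mif and Ddt (-0.60 and -0.32), whose place in melanosomes was not tested. Without the trend Mif did not pass (0.033) and Ddt was called higher (0.15). Gpnmb, a relative of PMEL, fell to 954 ± 37.3 FPKM in RPMI-1640, against 1903 ± 66.8 in DMEM (SD, n = 3 each), or 50.1%. Ctns, the cystine exporter of lysosomes and melanosomes, fell to 50.5% of its DMEM level, and Cited1, a coactivator placed in this list for its expression in pigment cells, to 21.5%. In the list of PMEL processing 3 of 10 were lower, 3 higher and 4 did not pass (median -0.056), against 4 lower and 3 higher without the trend (-0.012). Among the lower ones was Bace2, the protease that releases the fibril-forming part of PMEL, at 43.4, 43.3 and 45.5 FPKM in RPMI-1640 and 102, 97.3 and 96.5 FPKM in DMEM (-1.15, or -1.35 with the trend removed). With it fell Apoe, which binds PMEL fibrils (-1.01, or -0.51), and the secretase subunit Psen2 (-0.90, or -0.62). The 3 called higher were Adam17 (0.54, or 0.19), Mmp14 (0.36, or 0.43) and Ncstn, another secretase subunit (0.28, or 0.37).

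Genes of the machinery that builds and moves melanosomes were called in both directions, as were all genes tested (35.4% lower and 40.6% higher). Their numbers depended on the scaling and on the trend. Of 27 sorting complex genes 13 were lower, 7 higher and 7 did not pass (median -0.10), and without the trend 14 were lower and 4 higher (-0.098). Hps4 and Bloc1s3, subunits of complexes that route cargo to melanosomes, were lower (-0.65 and -0.66, or -0.45 and -0.39 without the trend), and Lyst, the Chediak-Higashi gene, was higher (0.80), although Lyst moved to -0.020 and did not pass with the trend removed. Of 9 transport genes 3 were lower, 3 higher and 3 did not pass (median -0.063), but without the trend 6 were lower, 1 was higher and 2 did not pass (-0.21). Rab27a, which with Mlph ties melanosomes to the myosin Myo5a, was lower (-0.28), but did not pass with values scaled to a common total (-0.11, limma adjusted p = 0.0525). Mlph had a log2 fold change of -0.098, or 0.034 without the trend, and did not pass (limma adjusted p = 0.0756; 0.0252 with the replicate number as a block and 0.0410 without DMEM replicate 1). Myo5a was higher (0.61) but was called lower with the trend removed (-0.21). Rab17, a GTPase of melanosome release, fell to 6.02 FPKM in RPMI-1640, against 17.7 FPKM in DMEM (-1.41), and the motor gene Kif5b was higher (0.80, or 0.19 with the trend removed).

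Among the signals upstream of MITF, Mc1r, the melanocortin receptor, was at 60.2, 62.1 and 64.3 FPKM in RPMI-1640 and at 85.9, 87.6 and 92.8 FPKM in DMEM (log2 fold change -0.50, SE 0.049, limma adjusted p = 2.63e-06); 20.2% of its 32-base words are shared with other genes. Of 24 genes of the melanocortin and cAMP list, 12 were higher, 5 lower and 7 did not pass (median 0.14), and without the trend 11 were higher and 8 lower (0.11). Pde4b, a phosphodiesterase that degrades cAMP, rose 3.12-fold (1.47), Creb1, a factor activated by cAMP, had 0.92, or 0.18 with the trend removed, and Atrn, the attractin gene of the agouti pathway, 0.81, or 0.25. Of 7 KIT and endothelin genes, 2 were lower, 1 higher and 4 did not pass (median 0.030), but without the trend 4 were lower, 0 higher and 3 did not pass (-0.18). The kinase genes Mapk3 (-0.86, or -0.35 without the trend) and Map2k1 (-0.27, or -0.18) were lower, with Map2k1 not passing with a common total (-0.11). Kit averaged 2.27 FPKM in RPMI-1640 and 2.28 FPKM in DMEM and did not pass on the deposited values, but was called lower without the trend (-0.32, limma adjusted p = 0.00170), while Ednrb, the endothelin receptor, was listed at 0 in every library.

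Of 11 genes in a list of copper supply and tyrosinase folding, 6 were lower, 4 higher and 1 did not pass (median -0.21). Without the trend 8 were lower, 1 was higher and 2 did not pass (-0.21). The largest changes were those of the copper chaperones Ccs (-0.70, or -0.21 with the trend removed) and Atox1 (-0.66, or -0.094) and the glycoprotein chaperone Calr (-0.85, or -0.74). Close to them in size, the copper transporter gene Atp7a was called higher (0.65), but it did not pass with the trend removed (-0.024). Copper supply to tyrosinase itself was not tested. Of 14 known MITF targets outside pigment synthesis 7 were lower, 3 higher and 4 did not pass (median -0.14), and without the trend 9 were lower and 3 higher (-0.43). Lgals3, galectin-3, fell to 13.9% of its DMEM level (-2.76), Cdkn1a, the cell cycle inhibitor p21, to 40.6% (-1.29), and Bcl2, the survival factor, rose 2.33-fold (1.07). Over all 9 lists, without the 10 genes, 53 of 124 tested genes were called lower and 39 higher. Of all genes tested 35.4% were called lower and 40.6% higher. With values scaled to a common total 39 were lower and 51 higher, where 25.0% and 51.5% of all genes were.

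**Figure D5:**
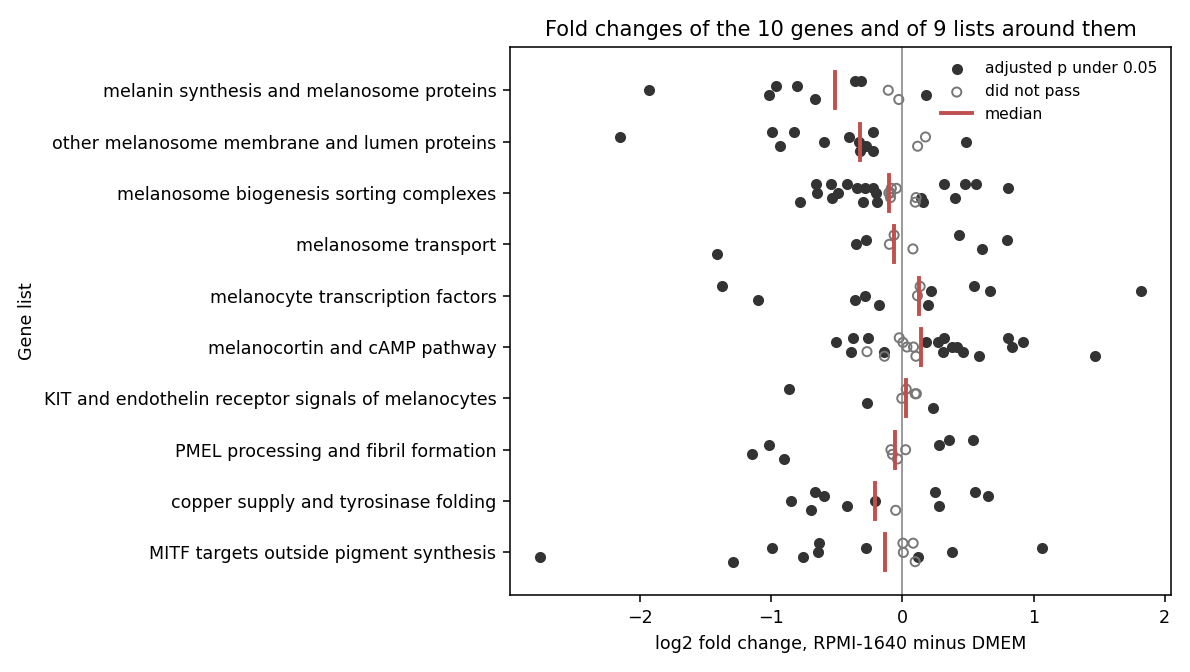
Log2 fold changes, RPMI-1640 minus DMEM, on the deposited values, of the 10 genes (top row) and of 9 lists around them, 1 point per tested gene, filled where the adjusted p is under 0.05, with a red bar at each median. The 10 genes have the lowest median (-0.51), followed by the other melanosome proteins (-0.32), and the melanocortin and cAMP list has the highest (0.14).

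The genes with the pattern most like each enzyme were taken by the root mean square difference of their log2 deviations over the 6 libraries. Nearest to Tyr were Tapt1, Psme4 and Rnf141 (0.0045, 0.0089 and 0.011 on the log2 scale). Nearest to Tyrp1 were Cep164, Sh3bp5 and Stt3a (0.017, 0.019 and 0.019), and nearest to Dct were Eif4b, Eif2ak1 and St3gal2 (0.012, 0.015 and 0.017). None of the other 9 pigment genes was among the 3 nearest of any of these enzymes. The patterns are those of the deposited values, and with 10624 genes to choose from this does not say whether the pigment genes vary together.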

How the data were processed

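The authors deposited FPKM per gene and library, computed per library and not pooled, with the unit named by the deposited table; the builds GRCm38 and mm10 are named in the submitters' processing notes. Per the labels' protocols, a SMARTer kit was used on 2 µg of total RNA. Which aligner, counter, gene annotation and strand setting they used is not given in the sources used here. Groups and replicate numbers came from the sample titles.

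Genes averaging 1 FPKM or more entered limma 3.58.1 under R 4.3.3 (eBayes with a trend, medium as the only term, two-sided) on log2(FPKM + 1). All 10624 came out as whole reads within 0.001 once scaled by length and library total, which gave the input of limma's voom, an alternative. The length of a gene was the smallest that made its reads whole in every library, so lengths and read numbers may be too low. The trend was fitted per library as splines (5 degrees of freedom each) of log2 length and of GC content, for 10324 genes. Length was the one implied by the deposited values, and GC content that of the longest transcript (GENCODE M21, GRCm38). Same-numbered libraries deviated together from their group means (r = 0.151, 0.150 and 0.382, each over 0.1), which met the rule for pairing, although RPMI-1640 replicate 1 with DMEM replicate 2 (0.137) and replicate 2 with 1 (0.131) were nearly as close. The reported values come from the fit without the block, and the blocked value is given where it changed a call. With the trend removed these were 0.0558, 0.0400 and 0.149, so the pairing is uncertain and comes from the data alone. The fits were checked on simulated data.

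The 10 genes and the lists were chosen with earlier results of these data known. Named beside the 10 genes are, of each list, up to 3 called genes with the largest change and a mean of at least 5 FPKM, and Mitf, Sox10, Pax3, Mc1r, Rab27a, Myo5a and Mlph. Outside this rule, Ednrb, Kit, Cd68, Atp7a, Mif, Ddt, Mreg, Rab38, Rab32, Tpcn2, Slc24a4, Adam17, Mmp14, Ncstn and the markers listed at 0 were named after their values were seen. A single gene that this rule names is not reported here. Promoter sequences are RefSeq's (GRCm38.p6). Tables, permutation tests and figures came from Python 3.11.15 (scipy 1.17.1, numpy 2.4.6, pandas 2.3.3 and matplotlib 3.10.9).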

Additional observations from a re-analysis of the deposited data

How the results depend on the processing

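Trpm1, Oca2, Gpr143, Slc45a2, Dct and Slc24a5 kept their direction and passed in limma under all 16 alternatives, and Pmel under 15. Pmel ranked 8 in every library, so quantile normalization set its values equal (0 on the log2 scale). Tyr was -0.43 with the length and GC trend removed, and likewise with the replicate block and the trend removed. Tyrp1 was 0.14 with a common total and 0.36 with quantile normalization, and Mlana 0.31 with quantile normalization. Of the genes that did not pass, Mlana was also 0.058 with a common total and, without the trend, 0.046, with and without the block, and Mlph was 0.065 with a common total, 0.040 with quantile normalization and 0.034 with the trend removed, with and without the block. Lyst (-0.020) and Myo5a (-0.21) changed sign with the trend removed, with and without the block. The number of the 10 genes called higher, 1 on the deposited values, was 2 with a common total, 3 with quantile normalization and 0 with the trend removed (also 0 with the replicate block and the trend removed), and the number called lower was 9 there. Leaving out each library in turn gave 7 to 9 called genes of the 10, with 7 to 8 lower and 0 to 1 higher, and 7454 to 8011 genes called in all; those without 1 called higher were the fits without RPMI-1640 replicate 1 or 2. With the replicate number as a block, 9 of the 10 and 8432 of all genes were called. Besides Mlana and Mlph, the block changed no call of the 10 genes or the genes named by the rule on the deposited values. Without the highest genes of the table, the share of the 10 genes was 2.77% in RPMI-1640 and 3.14% in DMEM. Over the 10 genes, the 33 named by the rule and all alternatives, 657 values kept direction and call, 6 passed anew, 9 no longer passed and 16 changed sign. The 3 libraries of a medium limit precision more than depth does, and the cause of the changes of sign was not tested.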
